A study of Homo sapiens with 4 samples.

Results

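The respiratory chain genes described here encode the subunits of the 5 complexes of oxidative phosphorylation, on the nuclear and the mitochondrial genome. Members were found by symbol. The symbol had to begin with NDUFA, NDUFB, NDUFC, NDUFS or NDUFV and a digit, with UQCR, with COX4 to COX8, with ATP5, with MT-ND, MT-CO, MT-CYB or MT-ATP, or name a succinate dehydrogenase subunit. Of 57746 genes in the table, 230 matched. Names of pseudogenes (125) and antisense RNAs (2) were left out, and MT-ATP6 and MT-ATP8 were kept although their names end like those of pseudogenes. The 103 members comprised 90 nuclear and 13 mitochondrially encoded genes, with 46 assigned to complex I, 3 to complex II, 10 to complex III, 22 to complex IV and 22 to complex V. Read-through names and names that are not subunits were kept where the rule found them. Cytochrome c1 (CYC1) and the acyl carrier subunit NDUFAB1, which the pattern does not match, are given with the electron carriers.

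RNA was sequenced from 4 human lines with 1 library each. DLD1 is a colorectal cancer line, parental to the others and labelled epithelial. SA was derived from colonies in soft agar and SPH from colonospheres, and both are labelled mesenchymal. METS, labelled epithelial, came from a xenograft's metastasis in the lung. No gene was altered and no agent was given, as far as the labels say, and all lines were cultured in McCoy's 5A medium with serum, penicillin and streptomycin. Whether a derived line is a pool or a clone is not given in the sources used here. No line was sequenced more than once, so differences between lines cannot be set against replicate error and no SD is given.

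Complex I passes electrons from NADH, and complex II from succinate, to ubiquinone. Complex III moves them on to cytochrome c and complex IV to oxygen, and complexes I, III and IV pump the protons whose return drives ATP synthesis in complex V. Complex II alone is encoded by nuclear genes throughout. The other 4 complexes combine nuclear subunits, which are transcribed from separate promoters, with subunits from mitochondrial DNA, which a dedicated polymerase transcribes as long precursors that are cut into mRNAs. Nuclear respiratory factor 1 (NRF1), ETS-family factors such as GABP, and YY1 are textbook regulators of the nuclear genes. Colorectal cancer cells, like most dividing cells, use both glycolysis and oxidative phosphorylation.

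Promoter sequences are shown because each nuclear member has a promoter of its own. Among single-row subunits with a promoter in the RefSeq table used here, the printed sequences belong, for each complex, to the subunit of highest level in DLD1 among those highest in METS, and last to the subunit with the lowest difference in METS. Each is the 250 bases before the RefSeq start on GRCh38.p14, 5′ to 3′ along the gene. Capitals mark matches, on either strand, to the NRF1 core GCGCANGCG (N is any base), the ETS core CCGGAAG or the YY1 core AAGATGGCG, and no core contains another.
NDUFB7, chr19:14572067-14572316, minus strand: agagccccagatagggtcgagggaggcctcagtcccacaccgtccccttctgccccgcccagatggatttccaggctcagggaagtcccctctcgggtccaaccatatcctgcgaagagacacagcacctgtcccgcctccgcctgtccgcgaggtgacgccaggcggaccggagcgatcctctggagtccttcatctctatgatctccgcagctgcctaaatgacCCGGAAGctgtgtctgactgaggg
SDHB, chr1:17054033-17054282, minus strand: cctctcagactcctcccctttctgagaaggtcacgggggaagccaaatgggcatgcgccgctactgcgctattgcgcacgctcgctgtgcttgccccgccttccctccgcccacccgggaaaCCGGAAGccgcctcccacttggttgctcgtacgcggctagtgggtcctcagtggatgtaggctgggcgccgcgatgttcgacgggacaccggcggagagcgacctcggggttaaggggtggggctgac
UQCRH, chr1:46303448-46303697, plus strand: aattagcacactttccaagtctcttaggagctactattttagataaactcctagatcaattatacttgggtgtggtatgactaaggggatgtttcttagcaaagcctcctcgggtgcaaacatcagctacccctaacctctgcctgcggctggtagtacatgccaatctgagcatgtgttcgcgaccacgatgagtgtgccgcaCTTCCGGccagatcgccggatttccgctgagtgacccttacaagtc
COX6A1, chr12:120437863-120438112, plus strand: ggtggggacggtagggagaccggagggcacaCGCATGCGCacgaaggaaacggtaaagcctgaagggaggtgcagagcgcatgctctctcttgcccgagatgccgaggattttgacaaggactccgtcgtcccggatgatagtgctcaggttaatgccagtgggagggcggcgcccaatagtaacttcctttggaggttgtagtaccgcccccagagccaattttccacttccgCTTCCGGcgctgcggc
ATP5I (RefSeq ATP5ME), chr4:674277-674526, minus strand: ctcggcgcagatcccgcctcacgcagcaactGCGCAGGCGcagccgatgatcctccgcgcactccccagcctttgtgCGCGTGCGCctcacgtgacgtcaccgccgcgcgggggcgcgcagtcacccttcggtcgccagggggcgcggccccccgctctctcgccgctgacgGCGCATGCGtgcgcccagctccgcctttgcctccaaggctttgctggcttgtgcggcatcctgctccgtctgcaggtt
NDUFV1, chr11:67606686-67606935, plus strand: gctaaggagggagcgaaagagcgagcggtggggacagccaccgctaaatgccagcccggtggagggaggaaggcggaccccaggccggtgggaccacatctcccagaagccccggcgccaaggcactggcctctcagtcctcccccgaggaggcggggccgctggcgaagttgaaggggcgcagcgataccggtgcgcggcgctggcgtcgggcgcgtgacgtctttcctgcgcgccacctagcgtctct
SDHB, UQCRH and NDUFB7 each held 1 ETS core, COX6A1 held 1 ETS and 1 NRF1 core, ATP5I held 3 NRF1 cores and NDUFV1 held none of the 3. Among 72 nuclear subunit genes of at least 1 RPKM, 60 had a promoter in the RefSeq table. The NRF1 core was found in 17 of these 60 (28.3%), against 7.0% of all 27305 promoters of that length and 14.5% of the 8720 promoters of genes tested between classes. The ETS core was found in 15 of 60 (25%), against 8.8% of all promoters and 17.5% of those of tested genes. The YY1 core was found in 1 of 60 (1.7%), against 0.6% and 1.1%. These matches describe letters in the window only. The printed genes were picked by their METS values, so they cannot relate motifs to differences between lines.

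Values are RPKM, reads scaled to gene length and to the size of the library, as deposited. Differences are differences of log2(RPKM + 1), which understate the change of low genes. A gene entered a comparison of 2 lines where the higher line reached 1 RPKM, and because no test is possible with 1 library per line, members were counted by a fixed size of at least 1.5-fold. Of the 103 members 94 reached 1 RPKM in a line, 81 nuclear and all 13 mitochondrially encoded. The step between low values put 48.5 to 53.8 reads on a gene of 1 kb at 1 RPKM, an approximate figure, and counting error came to a median of 1.6% per member and 11.9% at most, for the read-through name ATP5J2-PTCD1. Of 12 colorectal epithelial markers 9 reached 1 RPKM, with summed levels of 2222 RPKM in DLD1, against 1642 in SA, 1777 in SPH and 2798 in METS, whereas CDX1, LGALS4 and GPA33 stayed under 1 RPKM. The keratins KRT8, KRT18 and KRT19 made up most of these sums. KRT20, CDH17, CDX2 and CDH1 were lower in METS than in DLD1, with KRT20 at 0.5 against 21.9 RPKM and CDH17 at 14.2 against 22.5. Of 8 leukocyte markers CD14 alone reached 1 RPKM, at 1.36 in METS against 0.89 in DLD1, while PTPRC and CD3E were listed at 0 in every line, and the list summed to 1.27 RPKM in DLD1, against 0.79 for SA, 1.21 for SPH and 1.76 for METS. Of 5 lung epithelial markers NKX2-1 alone reached 1 RPKM, at 1 in METS against 0.57 in DLD1, 0.21 in SA and 0.09 in SPH, and the surfactant genes SFTPA1, SFTPB and SFTPC stayed at or below 0.03. The part of these cell types in the differences between lines was not tested. None of the fibroblast, endothelial, muscle and testis markers reached 1 RPKM in any line.

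Nuclear respiratory chain genes were higher in METS than in DLD1 in most members, by small amounts. In METS 63 of 80 nuclear members lay above DLD1 with a median log2 difference of 0.14 (a ratio of 1.10), whereas 44.7% of 11275 genes lay above DLD1 with a median of −0.03. In SPH 56 of 81 were above DLD1, with a median of 0.06 against 0.03 over all genes, of which 55.9% were above. In SA 33 of 80 were above, with a median of −0.02 against 0.03 over all genes, of which 55.2% were above. By these medians SA lay slightly below DLD1, SPH above it and METS farthest above it. The SA median turned to 0.02 when values were scaled to the summed level of nuclear genes. Against SA, METS was higher in 74 of 80 nuclear members, with a median of 0.14, whereas 40.5% of all genes were higher, with a median of −0.05. In these bulk libraries more cells of a kind and more RNA per cell cannot be told apart.

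The order of the 4 lines was uneven in the same way. METS held the highest value of 47 of 80 nuclear members (58.8%), against 23.8% of all 11262 genes of at least 1 RPKM in 2 lines. SA held the lowest value of 36 of 80 (45%), against 15.6% of all genes, and DLD1 that of 30 of 80 (37.5%), against 24.3%. METS was lowest for NDUFB6, NDUFV1 and NDUFV3 only, and SA was highest for NDUFA5 and NDUFB1 only. The spread was narrow throughout, since the highest line exceeded the lowest by a median of 1.19 times among nuclear members, 1.15 times among mitochondrially encoded members and 1.26 times among all genes. Summed over the 90 nuclear members the level was 3769 RPKM in DLD1, against 3668.0 in SA, 3899 in SPH and 4185 in METS, which is 1.34%, 1.33%, 1.39% and 1.47% of all summed RPKM.

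Few members passed the fixed size. None of 93 members differed at least 1.5-fold between SA and DLD1, against 2.82% of all genes. In SPH 1 of 94 did, against 4.57%, and in METS 1 of 93, against 5.41%. The member was in both cases NDUFA7_2, the second of 2 table rows named NDUFA7, which was lower in SPH (−0.63) and higher in METS (0.62). NDUFA7 is a supernumerary subunit of complex I. Of the 50-base stretches of its transcript, 73.7% recur in another annotated gene, and the other row, NDUFA7_1, did not follow it. NDUFA7_2 read 5.62 RPKM in DLD1, against 4.21 in SA, 3.28 in SPH and 9.18 in METS; NDUFA7_1 read 14.3, 12.6, 16 and 13.9, so the division of reads between the rows is uncertain.

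**Figure D1:**
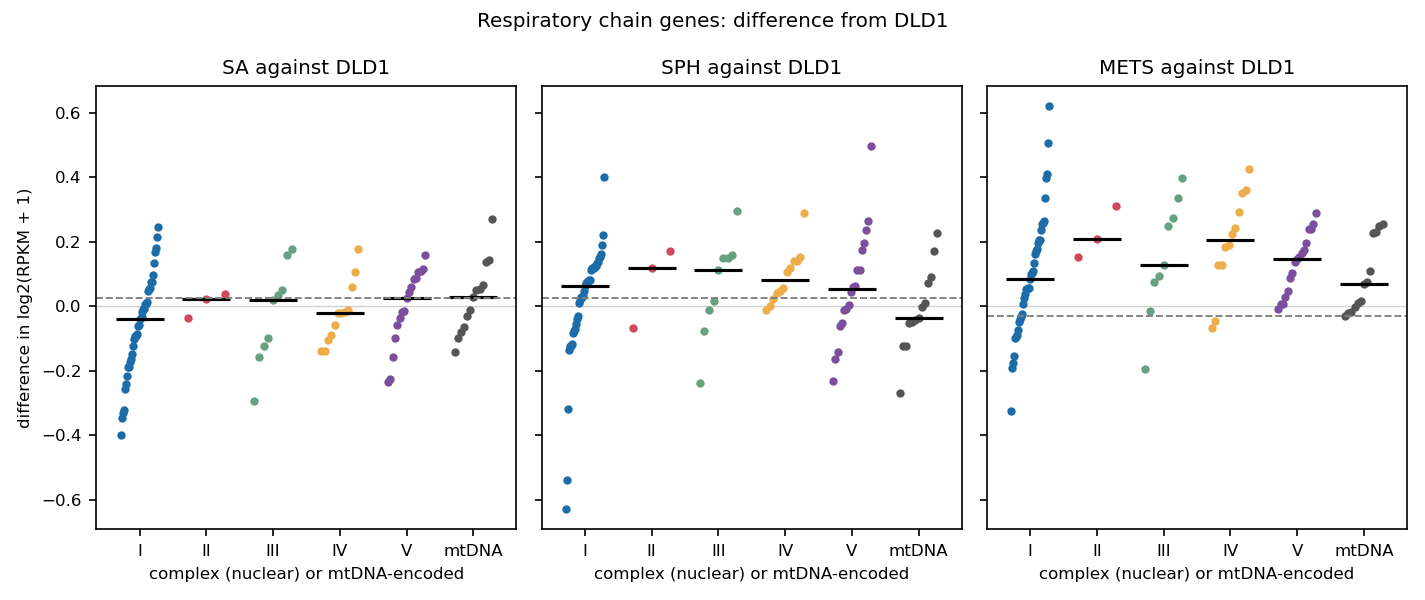
Difference in log2(RPKM + 1) from DLD1 for nuclear members by complex and for mitochondrially encoded members (mtDNA), each point a gene and 1 library per line. Black bars are medians and the dashed line is the median of all genes. In METS all 6 medians lie above the dashed line, whereas in SA they lie near it.

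Complex I supplied 39 nuclear members of at least 1 RPKM. Their median difference was 0.08 in METS (27 of 39 higher than DLD1), 0.06 in SPH (26 of 39) and −0.04 in SA (14 of 39). The arm that oxidises NADH was divided. NDUFV1, the subunit that binds NADH and the flavin, read 34.6 RPKM in DLD1, against 32.4 in SA, 35.3 in SPH and 30.2 in METS; METS was the lowest line. NDUFV2, its iron-sulfur partner, read 24.4, 24.1, 25.2 and 31.0, and METS was the highest line with a difference of 0.34. For NDUFV2, 74.0% of 50-base stretches recur in other annotated genes. NDUFS1, which carries further iron-sulfur clusters of this arm, read 8.72, 9.93, 9.67 and 10.6, with DLD1 lowest and METS highest.

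In the arm that passes electrons to ubiquinone, the core subunit NDUFS3 read 22 RPKM in DLD1, against 23.2 in SA, 23.2 in SPH and 22.9 in METS, so that DLD1 was lowest by a small margin. NDUFS7, an iron-sulfur subunit of this arm, read 9.98, 8.81, 10.6 and 9.44, and NDUFS8, another, read 16.4, 14.98, 16.6 and 15.4. Both were lowest in SA and highest in SPH, with differences from DLD1 of −0.16 and −0.12 in SA. The 31 supernumerary rows had a median of 0.10 in METS (23 of 31 higher) and −0.04 in SA (12 of 31 higher). NDUFS4, a supernumerary subunit needed for assembly of the NADH arm and known from Leigh syndrome, read 17.7, 16.96, 20.8 and 23.8 RPKM, with METS highest at a difference of 0.41. NDUFC2, a small membrane subunit, read 8.03, 9.48, 7.59 and 10.9, so that SPH was lowest and METS highest (0.40). These were the largest differences in METS among complex I genes with a single row. For NDUFC2, 16.8% of 50-base stretches recur in other annotated genes, among them the read-through name NDUFC2-KCTD14. That name was lower in METS, so the division of reads between it and NDUFC2 is uncertain.

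NDUFB7 and NDUFS5 had the highest levels among nuclear complex I rows in DLD1. NDUFB7, a subunit on the intermembrane side of the membrane arm, read 115 RPKM in DLD1, against 97.2 in SA, 112 in SPH and 119.8 in METS. SA stood below the other lines by a difference of −0.24 from DLD1. NDUFS5 read 99.8, 90.0, 96.0 and 117.8, with SA lowest and METS highest. NDUFA3, a small membrane subunit, read 13.5, 10.5, 12.2 and 13.2, lowest in SA at −0.33. NDUFA5, a subunit of the matrix arm, was lowest in DLD1 at 2.57, against 3.23 in SA, 3.07 in SPH and 3.09 in METS.

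NDUFA13, a subunit also known as GRIM-19, read 5.22 RPKM in DLD1, against 4.21 in SA, 3.28 in SPH and 4.50 in METS. DLD1 was highest and SPH lowest, at −0.54, and 41.3% of its 50-base stretches recur in another annotated gene. NDUFB8 also occupied 2 rows that differed in opposite directions. NDUFB8_2 read 15.5, 12.2, 12.2 and 13.8, with DLD1 highest, whereas NDUFB8_1 read 0.81, 1.05, 1.39 and 1.57, with DLD1 lowest. For NDUFB8, 53.6% of 50-base stretches recur elsewhere. The read-through name NDUFC2-KCTD14, which shares 92.6% of its stretches with other genes, read 12.5, 9.23, 12.6 and 9.76, and was lower in SA (−0.40) and METS (−0.33) while NDUFC2 was higher in both.

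The succinate dehydrogenase subunits SDHA, SDHB and SDHC were all highest in METS. The remaining subunit, SDHD, is not among the members that the rule found, so complex II is not covered in full. SDHA, the flavoprotein that oxidises succinate, read 17.1 RPKM in DLD1, against 17.5 in SA, 18.6 in SPH and 19.9 in METS. SDHB, the iron-sulfur subunit, read 33.5, 34.0, 37.8 and 41.8, so that the lines stood in the same order as for SDHA. SDHC, which anchors the enzyme in the membrane, read 24.4, 23.8, 23.2 and 27.3, with SPH lowest. The differences of METS from DLD1 were 0.21, 0.31 and 0.15. For SDHA 22.3% of 50-base stretches recur in other annotated genes, among them the pseudogene copies SDHAP3 and SDHAP1.

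In complex III the median of 9 nuclear members was 0.13 in METS (7 of 9 higher than DLD1), 0.11 in SPH (6 of 9) and 0.02 in SA (5 of 9), and METS was above SA in 9 of 9. UQCRC2, a core protein, read 36.7 RPKM in DLD1, against 41.1 in SA, 45.2 in SPH and 44.5 in METS. DLD1 was lowest and the 3 derived lines lay above it, with a difference of 0.29 in SPH and 0.27 in METS. UQCRC1, the other core protein, read 54.9, 51.1, 54.4 and 58.7, with SA lowest. UQCRFS1, the Rieske iron-sulfur protein, read 81.9, 83.9, 88.6 and 86.3, within a narrow range. UQCRH, the hinge protein at the cytochrome c1 contact, read 107.7, 109, 119.6 and 136, highest in METS at 0.34. Part of its sequence (29.4% of stretches) recurs in UQCRHL. The 2 rows named UQCR11, the smallest subunit, went apart in METS: UQCR11_2 read 25.3, 23.1, 28.3 and 33.6, while UQCR11_1 read 18.4, 14.8, 15.5 and 15.9.

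**Figure D2:**
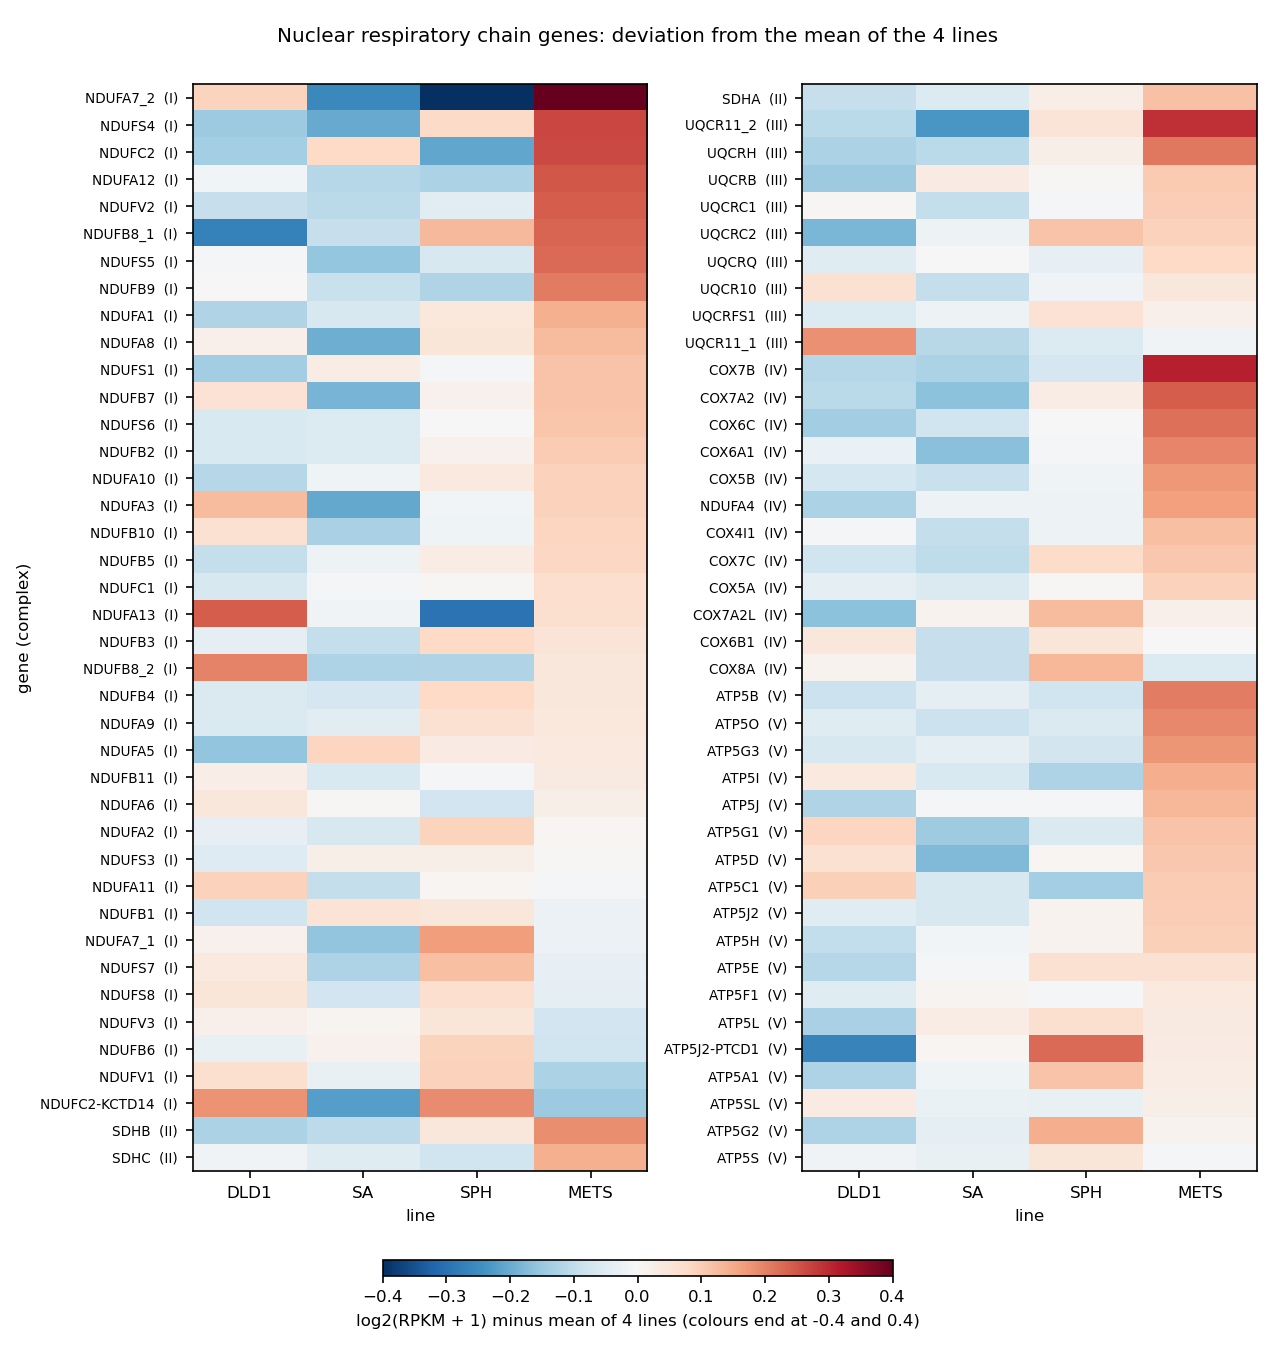
Log2(RPKM + 1) of nuclear members of at least 1 RPKM minus each gene's mean over the 4 lines, by complex and ordered by METS within a complex, 1 library per line. The METS column is red (above the mean) for most rows of each complex and the SA column is mostly blue, and the strongest row is NDUFA7_2, at 9.18 RPKM in METS against 3.28 in SPH.

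Complex IV had the widest METS shift among the complexes with at least 9 nuclear members. The median of 12 nuclear members was 0.21 in METS (10 of 12 higher than DLD1), 0.08 in SPH (11 of 12) and −0.02 in SA (3 of 12). METS was above SA in 12 of 12. COX7B, a small membrane subunit, read 21.4 RPKM in DLD1, against 21.2 in SA, 22.2 in SPH and 29.1 in METS. The first 3 lines were nearly level and METS stood apart at a difference of 0.43. COX6C read 29.7, 31.0, 32.8 and 38.4 and COX7A2, the liver-type form of subunit VIIa, read 43.9, 42.2, 48.5 and 56.3, both highest in METS at 0.36 and 0.35. NDUFA4, once counted with complex I and now placed in complex IV, read 29.8, 32.1, 32.1 and 36.7, with DLD1 lowest.

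COX8A and COX6A1 had the highest levels among nuclear members of complex IV in DLD1. COX6A1, the widely expressed form of subunit VIa, read 175 RPKM in DLD1, against 159 in SA, 178 in SPH and 205 in METS, with 44.0% of its stretches shared, chiefly with COX6A1P2. COX8A, the widely expressed form of subunit VIII, read 232, 216, 252 and 221, so that METS was below DLD1 and SPH highest. COX6B1, which joins the monomers of the enzyme, also lay below DLD1 in METS, at 99.97 against 103. COX4I1, an early-assembling subunit, read 72.8, 68.3, 72.1 and 79.6. COX7A2L, a factor of supercomplex assembly and not a subunit of complex IV, was above DLD1 in all 3 derived lines, at 16.9, 19.3, 20.9 and 19.4.

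Tissue-restricted forms were nearly silent in all 4 lines. COX6A2, COX7B2 and COX8C, known from muscle or testis, were listed at 0 in every line. COX4I2, a form known from lung and low oxygen, reached at most 0.03 RPKM, COX7A1, the heart and muscle form of subunit VIIa, 0.06, and the testis form COX6B2 0.09. NDUFA4L2, a form known to respond to low oxygen, read 0.26 in DLD1, against 0.16 in SA, 0.20 in SPH and 0.23 in METS. The retrocopy ATP5L2 reached 0.02, and the pseudogene name ATP5J2LP was listed at 0. These 9 members are the ones under 1 RPKM, and the lines differed in the level of the general forms, not in which form was present at 1 RPKM.

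Complex V was above DLD1 in METS for 16 of 17 nuclear members, with a median of 0.15, against 0.05 in SPH (11 of 18) and 0.03 in SA (9 of 17). ATP5B, the catalytic beta subunit and the highest nuclear member, read 431 RPKM in DLD1, against 445 in SA, 432 in SPH and 527 in METS. METS stood apart from 3 nearly level lines, at a difference of 0.29. ATP5A1, the alpha subunit that alternates with it in the F1 head, read 171, 184, 202 and 190.6, highest in SPH. The 2 head subunits therefore differed in their order of lines. ATP5C1, the gamma subunit of the rotating stalk, read 49.2, 43.9, 41.7 and 49.4, lower in both mesenchymal lines. ATP5D, the delta subunit, read 99.5, 84.4, 95.9 and 103, lowest in SA.

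The c-ring, the rotor in the membrane, is made of a single mature protein that 3 genes encode. ATP5G1 read 32.5 RPKM in DLD1, against 27.7 in SA, 29.4 in SPH and 33.2 in METS; the mesenchymal lines were lower. ATP5G2 read 28.2, 30.0, 34.1 and 31.1, highest in SPH. ATP5G3 read 38.8, 39.5, 38.5 and 45.9, highest in METS. The 3 genes each had another order of the lines. All 4 peripheral stalk genes (ATP5F1, ATP5H, ATP5J, ATP5O) were above DLD1 in METS, from 0.09 to 0.25. ATP5I, subunit e at the dimer interface, read 87.3, 81.4, 77.8 and 93.9, with both mesenchymal lines below both epithelial lines. ATP5S and ATP5SL, which are not subunits of the enzyme despite their names, differed from DLD1 by at most 0.06 in any line. The read-through name ATP5J2-PTCD1 entered only the SPH comparison with DLD1, at 1.13 against 0.51.

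The 13 mitochondrially encoded mRNAs were far more abundant than the nuclear ones and showed no common direction in SA or SPH. They held 25.8% of all summed RPKM in DLD1, against 26.6% in SA, 25.5% in SPH and 26.6% in METS. The median mitochondrially encoded member was 198 times the median nuclear member of at least 1 RPKM in DLD1, against 207 times in SA, 185 times in SPH and 177 times in METS. Against DLD1 the median log2 difference was 0.03 in SA (7 of 13 higher), −0.04 in SPH (5 of 13) and 0.07 in METS (9 of 13). The direction in SA was −0.04 (5 of 13 higher) after correction for GC content. In METS the count was 13 of 13 with median-of-ratios scaling and 7 of 13 after GC correction, so the number of higher members depended on scaling.

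By complex, the mitochondrially encoded subunits of complex I were higher in METS in 7 of 7, with a median of 0.23, and of −0.01 in SA and −0.002 in SPH. These values are not corrected for GC content. That correction moved the METS median of all 13 mitochondrially encoded members from 0.07 to 0.01. The mitochondrially encoded subunits of complex I form its proton-pumping membrane arm. MT-ND1, which joins the arms, read 3543 RPKM in DLD1, against 3469 in SA, 4147 in SPH and 4213 in METS; SPH and METS lay above the other lines. MT-ND3 read 2531, 2623, 2528 and 3023, and MT-ND5 read 2669, 2793, 2844 and 3130.1, both highest in METS. MT-ND6, the single mRNA of the other strand, read 3648, 3620.0, 3521 and 4267, again highest in METS. MT-ND2 read 4352, 4114, 4245 and 4570.3 and stayed within 0.08 of DLD1. MT-ND4 (9618, 9200.5, 9338 and 9676) and MT-ND4L (5850.3, 5964, 6152 and 5912), which lie on a single bicistronic mRNA, differed from DLD1 by at most 0.07. The 7 genes thus fell into 4 with METS differences from 0.23 to 0.26 and 3 with differences from 0.01 to 0.07.

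The other mitochondrially encoded genes did not share that pattern. MT-CYB, cytochrome b of complex III, read 3416 RPKM in DLD1, against 3537 in SA, 2836 in SPH and 3347 in METS; SPH stood below the others at −0.27. The catalytic subunits of complex IV read 8276, 7507, 7604 and 8164 for MT-CO1, and 9365, 8742, 8601 and 9869.5 for MT-CO2. Both mesenchymal lines lay below both epithelial lines for these genes. MT-CO3 read 5582, 6165, 5622 and 5515, the opposite order, with SA highest. Nuclear complex IV members had a median of 0.21 in METS, where MT-CO1 to MT-CO3 differed from DLD1 by −0.02, 0.08 and −0.02.

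MT-ATP6 and MT-ATP8, the membrane subunits of complex V, were highest in SA. MT-ATP6 read 7959 RPKM in DLD1, against 8758 in SA, 7695 in SPH and 7951 in METS. MT-ATP8 read 5667, 6840.1, 6385 and 6108, lowest in DLD1, with a difference of 0.27 in SA. The reading frames of the 2 genes overlap by 46 bases, shown because reads in it cannot be given to a single gene, from the GENCODE 29 transcripts on GRCh38, with no capitals set.
MT-ATP8 and MT-ATP6 overlap: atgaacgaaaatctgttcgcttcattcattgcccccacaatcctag
The overlap is 22.2% of MT-ATP8 and 6.8% of MT-ATP6, and MT-ND4L and MT-ND4 share 7 bases. The 24 rows of mitochondrial ribosomal and transfer RNAs were listed at 0 in all lines. Of 175 nuclear pseudogene names of mitochondrial mRNAs 173 were listed at 0 and the highest value was 0.08 RPKM, although, for example, 49.5% of 50-base stretches of MT-CO1 recur in such copies.

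**Figure D3:**
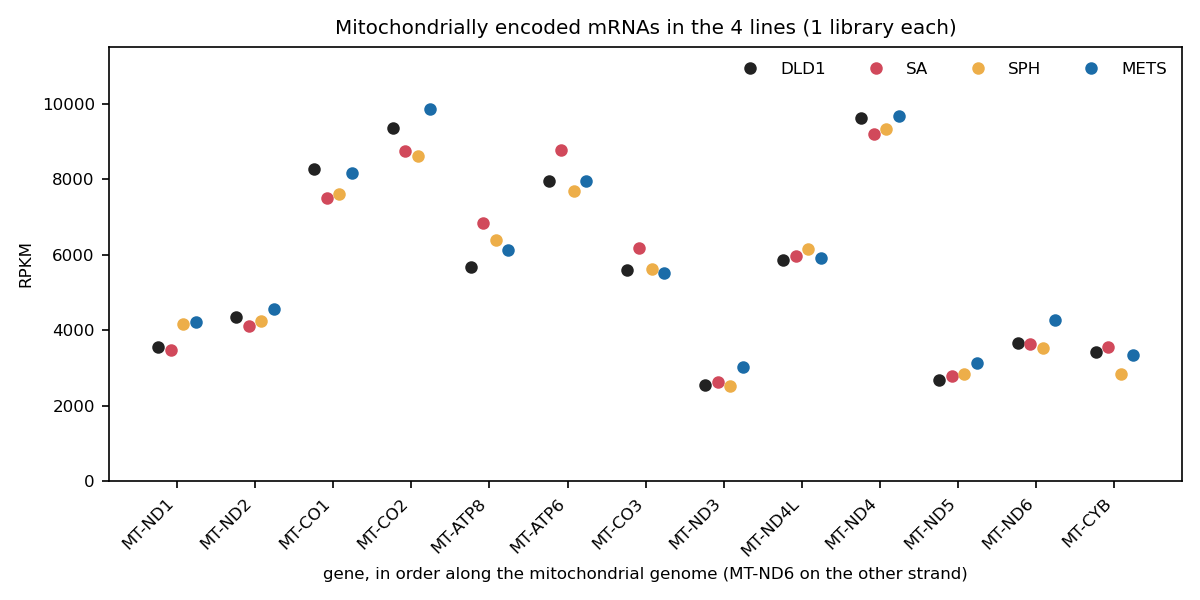
RPKM of the 13 mitochondrially encoded mRNAs in the 4 lines, in order along the mitochondrial genome, on a linear axis from 0, 1 point per library. METS is highest for MT-ND1, MT-ND2, MT-ND3, MT-ND4, MT-ND5, MT-ND6 and MT-CO2. SA is highest for MT-ATP6, MT-ATP8, MT-CO3 and MT-CYB.

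The labels group the lines into mesenchymal (SA and SPH) and epithelial (DLD1 and METS), which allows a test over lines. With limma-trend and Benjamini-Hochberg adjustment over 11262 genes, none of 93 members passed an adjusted p of 0.05, against 0.355% of all genes. At an unadjusted p under 0.05 there was 1 member of 93, NDUFA7_2, against 8.65% of all genes. NDUFA7_2 had a class difference (mesenchymal minus epithelial) of −0.80 with an SE of 0.22 and an adjusted p of 0.39 (limma-trend, 2 lines per class). The p-values measure the spread between different lines of a class. The median class difference was −0.05 over 80 nuclear members (26 of 80 higher in mesenchymal lines) and −0.06 over mitochondrially encoded members (4 of 13 higher), against 0.04 over all genes. Without METS these medians were 0.02 and 0.03.

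Both mesenchymal lines lay above both epithelial lines in 6 of 93 members (6.5%), against 24.7% of all genes, and below both in 27 of 93 (29%), against 13.1%. The 6 higher members were NDUFB1, NDUFB6, NDUFS3, MT-ATP8, MT-CO3 and MT-ND4L. MT-ATP8 had the largest class difference of these, 0.17 with an SE of 0.10. Among the 27 lower members, ATP5C1 had a class difference of −0.20 (SE 0.10), ATP5G1 −0.20 (SE 0.10) and NDUFB8_2 −0.24 (SE 0.11). None of these passed, with limma-trend adjusted p-values of 0.67, 0.68 and 0.62.

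Genes that build or run the chain were read from lists of assembly factors, mitochondrial RNA and DNA upkeep, nuclear regulators, electron carriers with ubiquinone synthesis, and the citric acid cycle. Of the 122 genes tested in these 9 lists, 0 passed an adjusted p of 0.05 between classes and 1, ECSIT, had an unadjusted p under 0.05 (limma-trend), against 0.355% and 8.65% of all genes. In METS the citric acid cycle list had a median of 0.19 with 14 of 17 genes above DLD1, next to 0.14 for nuclear members, while the list of nuclear regulators had a median of 0.05 (7 of 10). MDH2, malate dehydrogenase, read 81.5 RPKM in DLD1, against 78.9 in SA, 86.2 in SPH and 93.2 in METS. IDH2, the mitochondrial NADP-dependent isocitrate dehydrogenase, read 24.7, 17.99, 29.8 and 31.4, lowest in SA at −0.44. Citrate synthase (CS) read 48.3, 51.0, 48.8 and 49.3, nearly level.

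Among assembly factors, the complex I and complex IV lists also lay mostly above DLD1 in METS. The median in METS was 0.08 for 15 complex I factors (9 higher), against 0.08 for nuclear complex I members. It was 0.09 for 24 complex IV factors (18 higher), against 0.21 for nuclear complex IV members. The 3 complex II factors had −0.01 (1 higher). Factors of complex III had 0.08 (3 of 5) and of complex V 0.08 (4 of 4). Of all genes 44.7% were higher in METS, with a median of −0.03. In SPH the complex I and complex IV factors had medians of 0.10 and 0.15. ECSIT, a complex I assembly factor, was the single factor past 1.5-fold, at 8.51 RPKM in SPH and 14.1 in DLD1, with 9.83 in SA and 13.2 in METS; of all genes 4.57% passed that size in SPH. HIGD1A, a factor of supercomplex and complex IV assembly, read 42.0 in DLD1, against 41.7 in SA, 41.7 in SPH and 54.5 in METS.

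The genes that transcribe and maintain mitochondrial DNA had a median of 0.09 in METS (16 of 25 higher), 0.07 in SA (17 of 25) and 0.02 in SPH (14 of 25). Of all genes 44.7% were higher in METS, 55.2% in SA and 55.9% in SPH, so the SPH count was near the share over all genes. TFAM, which packages mitochondrial DNA and starts its transcription, read 11.8 RPKM in DLD1, against 14.9 in SA, 11.9 in SPH and 12.8 in METS, highest in SA. POLRMT, the mitochondrial RNA polymerase, read 16, 13.5, 15.7 and 14.1, lowest in SA. LRPPRC and SLIRP, which together stabilise mitochondrial mRNAs, were both highest in METS, at 47.8 against 39.6 and 25.9 against 20.5 in DLD1. FASTKD5, which takes part in processing mitochondrial precursors, was the single gene of the list past 1.5-fold upward in METS (7.74 against 4.72), and MGME1, a mitochondrial exonuclease, the single gene downward (1.84 against 4.07), where 5.41% of all genes passed in either direction.

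Of the carriers, CYC1, cytochrome c1 of complex III, read 81.1 RPKM in DLD1, against 73.9 in SA, 87.0 in SPH and 84.96 in METS. Cytochrome c (CYCS) read 55.3, 62.3, 54.9 and 65.7. NDUFAB1 read 51.0, 52.4, 53.0 and 62.1, highest in METS. Of the transcription factors named with the promoter motifs, NRF1 read 4.46, 4.38, 3.8 and 4.04, with differences of −0.19 in SPH and −0.115 in METS. GABPA read 7.25, 7.34, 7.89 and 7.64, and YY1 21.3, 21.2, 22.0 and 21.8. In the same list MYC read 47.2, 54.5, 57.2 and 61.8 and NFE2L2 17.2, 19.1, 16.7 and 21.0, both highest in METS. Of the 10 regulators of at least 1 RPKM, 7 lay above DLD1 in METS and 3 below. PPARGC1A, a coactivator that drives mitochondrial biogenesis in muscle and brown fat, was at or below 0.02 in every line.

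**Figure D4:**
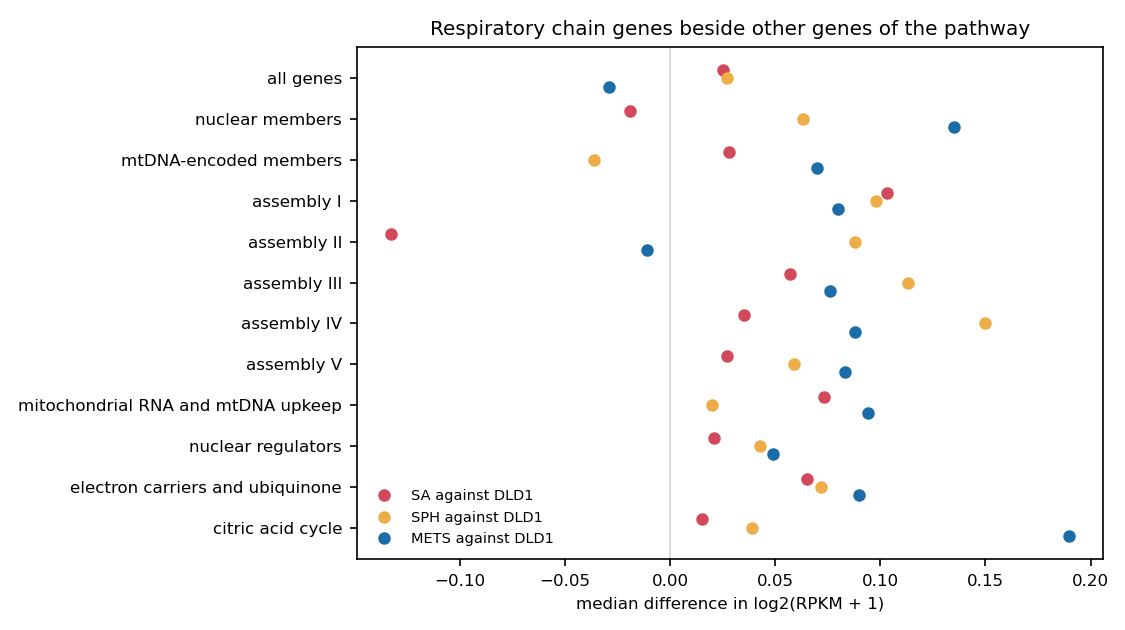
Median difference in log2(RPKM + 1) from DLD1 for all genes, the members by genome and 9 lists of related genes, with 1 point per derived line. In METS the citric acid cycle list (0.19) and the nuclear members (0.14) lie farthest right, and all genes lie at −0.03.

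In SA and METS, differences from DLD1 were lower at higher GC content of the transcript, among members and among all genes. Across the 80 nuclear members the correlation of the log2 difference with GC content was −0.61 in SA and −0.42 in METS, and across 81 in SPH −0.28. Across all genes it was −0.30, −0.29 and −0.07. These correlations are across genes that share libraries and are given as a description. In METS the 27 members of lowest GC content (35% to 45.2%) had a median of 0.18, against 0.08 over all genes of that range. The 27 of middle GC content had 0.15 against −0.05, and the 26 of highest GC content (53.8% to 69.6%) had 0.02 against −0.15. In SA the same classes had 0.03, −0.02 and −0.13, against 0.09, 0.02 and −0.08. Members therefore lay above genes of like GC content in METS in all 3 classes and below them in SA in all 3.

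After a lowess correction for GC content 71 of 80 nuclear members were above DLD1 in METS, with a median of 0.15. By complex the corrected medians were 0.12 for I, 0.32 for II, 0.17 for III, 0.20 for IV (12 of 12 higher) and 0.16 for V. In SA 25 of 80 were above, with a median of −0.04. When values were instead scaled to the summed level of nuclear genes, the SA median turned to 0.02 (46 of 80 higher), still under the median of 0.06 over all genes (62.8% higher), whereas METS stayed at 0.13 (63 of 80). With members left out whose 50-base stretches recur elsewhere in 20% or more, 56 of 68 nuclear members were above DLD1 in METS, with a median of 0.13.

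**Figure D5:**
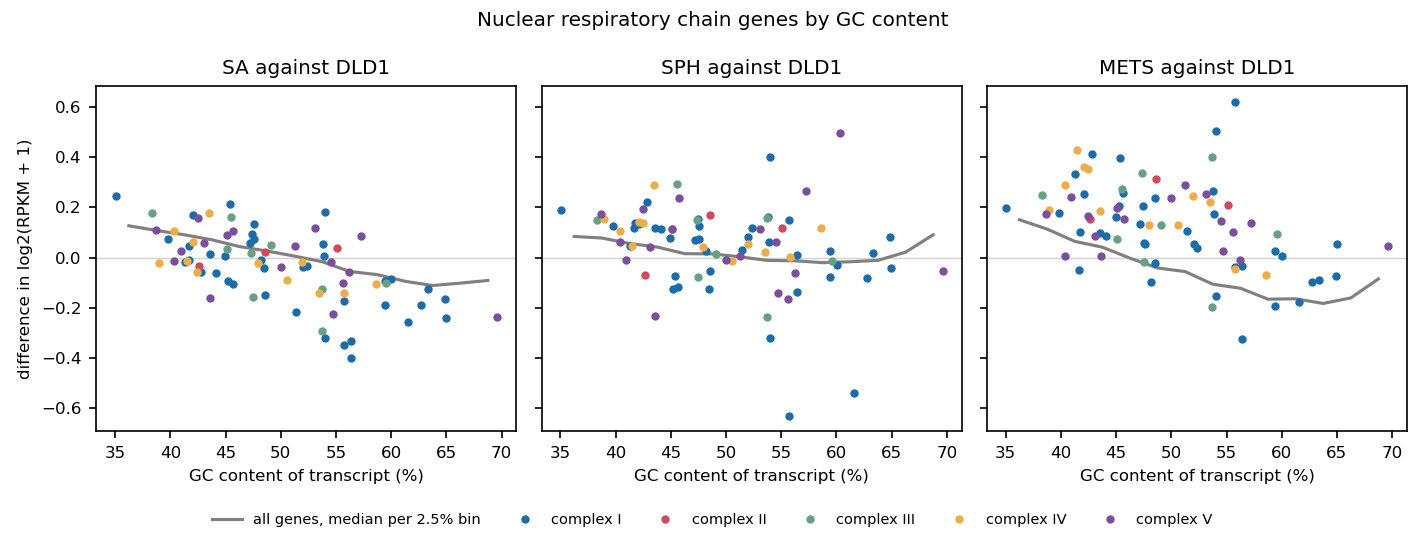
Difference in log2(RPKM + 1) from DLD1 against transcript GC content for nuclear members, coloured by complex, 1 library per line, with the grey line the median of all genes in bins of 2.5% GC. In METS most points lie above the grey line across the range, and in SA most points fall along it or below it (r = −0.61 across 80 members).

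By promoter motif, subunit genes with an ETS core had a median of 0.21 in METS (16 rows) and those without 0.10 (47 rows). With an NRF1 core the medians were 0.10 (18 rows) and 0.13 (45 rows). In SA the NRF1 groups had −0.10 and −0.02, and the ETS groups 0.001 and −0.03. In SPH the NRF1 groups had 0.04 and 0.08, and the ETS groups 0.09 and 0.06. These are descriptions, and a match in a window is not a binding site.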

How the data were processed

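Illumina libraries were made from total RNA of the 4 lines, per the labels' protocols. Values per gene and line, rounded to 2 decimals, were deposited by the authors in 1 table. These were read as RPKM because deposited values are not whole and, multiplied by gene length in kb, summed to 944160 to 954827 per line over 36167 genes with a GENCODE 29 length. Reads were mapped to hg19, per the submitters' processing notes. Aligner, counter, annotation and use of strand: not given in the sources used here, so overlapping genes cannot be told apart.

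Values were used as log2(RPKM + 1). The class test was limma-trend (limma 3.58.1, R 4.3.3) over genes that reached 1 RPKM in 2 or more lines, after being tested on simulated data. Tables used Python 3.11.15 with pandas 2.3.3 and statsmodels 0.14.6. Older symbols were matched through RefSeq (GRCh38.p14), and 56 of 60 promoters continued into a GENCODE 29 transcript. GC content came from GENCODE 29 for 94.6% of genes of at least 1 RPKM, and the lowess span was 0.3.

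Named were all mitochondrially encoded and complex II members, the 2 highest per nuclear complex, the 4 highest and lowest differences per line, up to 4 members per class direction, isoforms and up to 4 genes per list. Other members were chosen after their values were seen. A single member is counted but not reported by name here. Members and lists were chosen with earlier results of these data known. Alternatives were pseudocounts of 0.1 and 5, no filter or 5 RPKM, median-of-ratios and nuclear-total scaling, GC correction, subunits only, fold rules of 1.25 and 2, limma with no trend, and each line left out in turn.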

Additional observations from a re-analysis of the deposited data

How the results depend on the processing

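The medians of nuclear members against DLD1 ranged from −0.04 to 0.02 for SA, from 0.04 to 0.06 for SPH and from 0.12 to 0.16 for METS over 9 alternatives. For mitochondrially encoded members they ranged from −0.08 to −0.04 for SPH and from 0.01 to 0.10 for METS, and in SA the median turned to −0.044 under GC correction. The count past 1.5-fold was 1 in SPH and 1 in METS; became 4 and 2 (pseudocount 0.1), 0 and 0 (pseudocount 5), and 2 in METS under GC correction (NDUFA7_2 and NDUFB8_1). With the lower fold rule the counts were 3 in SA, 4 in SPH and 11 in METS. With a 2-fold rule they were 0 in SPH and 0 in METS. With repeated and read-through names left out, an alternative chosen after seeing the data, the counts past 1.5-fold were 0 in SPH and 0 in METS. Shares over all genes are given for the 1.5-fold rule and main settings only. Counts under other settings therefore do not set members against other genes.

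Leaving out each line moved the class median of nuclear members from −0.119 to 0.023 and that of mitochondrially encoded members from −0.112 to 0.025, with the positive values without METS. The number of members past adjusted p 0.05 was 0 also with limma without trend. Without DLD1, NDUFA7_2 had a class difference of −1.11. With a line left out, the class left with 1 line is assumed to vary like the other, so only sizes of differences are given. Adjusted p for the lowest member ranged from 0.35 to 0.48 over the alternatives with all 4 lines. No paired analysis was possible because each line has 1 library and the lines share no pairing beyond the number 1. Depth bounds counting error only, and the spread between cultures of a line is unknown.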
